A study of Mus musculus with 21 samples.

Results

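Undifferentiated spermatogonia are the stem and early progenitor cells of the male germline. In heated and unheated whole mouse testes, 10 genes that are commonly used to mark these cells were followed: Gfra1, Ret, Zbtb16, Id4, Etv5, Lin28a, Sall4, Foxo1, Upp1 and Nanos3. The members were chosen by name, with earlier results of these data known. Each was found as 1 entry among the 55573 entries of the deposited table. RNA sequencing was done on 21 whole testes of C57BL6 male mice. The groups were unheated wild type (n = 6), unheated Mageb4 knockout (n = 6), wild type 72 h after heat shock (n = 4) and Mageb4 knockout 72 h after heat shock (n = 5). The groups share strain and tissue and differ by the Mageb4 allele and by heat. The sources used here do not give the animals' age, the knockout allele's design or how hot and how long the heat shock was.

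Undifferentiated spermatogonia lie on the basement membrane of the seminiferous tubule next to Sertoli cells, and they are rare among the cells of an adult testis. Sertoli cells secrete GDNF, which binds the surface receptor GFRA1 and signals through the kinase RET to keep stem cells renewing themselves. Downstream and beside this signal act transcription regulators such as ETV5, ID4, PLZF (the product of Zbtb16), SALL4 and FOXO1, and the RNA-binding proteins LIN28A and NANOS3. Several of these genes are not restricted to germ cells. Etv5 is also expressed in Sertoli cells, and Foxo1 in endothelium and other somatic cells.

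Values are TPM, a transcript abundance scaled per gene length and to the same total in each library, so sequencing depth is unknown. Differences given in log2 are of log2(TPM + 1), with a moderated standard error, and understate the change of low genes. Adjusted p-values are from limma with Benjamini-Hochberg adjustment over all genes tested, and "called" means an adjusted p under 0.05. Fold values are ratios of group mean TPM. The targeted gene Mageb4 stood at 1.53 to 1.99 TPM in unheated and 7.82 to 8.26 TPM in heated wild type, against 0.01 to 0.11 and 0.09 to 0.15 TPM in the knockout. Correlation between libraries of a group was 0.971 to 0.994. Wild-type heat replicate 3 stood apart in genes of the epididymis, whose 12 listed genes summed to 3433 TPM there and to at most 20.9 TPM in every other library. Nothing in the labels ties the replicates to batches.

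All 10 members are protein-coding genes of mm10, in GENCODE M21. Etv5 (ENSMUSG00000013089.15) lies on the minus strand at chr16:22381309-22439719, Foxo1 (ENSMUSG00000044167.6) on the plus strand at chr3:52268336-52353221, Gfra1 (ENSMUSG00000025089.15) on the minus strand at chr19:58235604-58455909 and Id4 (ENSMUSG00000021379.2) on the plus strand at chr13:48261228-48266026. Promoter sequences from RefSeq (GRCm38.p6) were matched for 7 members with 10 start sites. The 3 members not matched are Ret, Zbtb16 and Sall4. The 250 bases before a RefSeq start are given for 4 members: Etv5 and Foxo1, which rose most in log2 after heat, Gfra1, the GDNF receptor, and Id4, which fell. The windows are chr16:22439571-22439820 (minus) for Etv5, chr3:52268087-52268336 (plus) for Foxo1, chr19:58455399-58455648 (minus) for Gfra1 and chr13:48260866-48261115 (plus) for Id4. RefSeq starts need not match the GENCODE gene bounds above. By those bounds the Gfra1 window lies inside its gene and the Etv5 window runs into its gene. The Id4 window ends before its gene, and the Foxo1 window ends where its gene begins. Capitals mark the CCAAT box (CCAAT, or ATTGG where it lies on the other strand) and the FOXO motif GTAAACA.
Etv5: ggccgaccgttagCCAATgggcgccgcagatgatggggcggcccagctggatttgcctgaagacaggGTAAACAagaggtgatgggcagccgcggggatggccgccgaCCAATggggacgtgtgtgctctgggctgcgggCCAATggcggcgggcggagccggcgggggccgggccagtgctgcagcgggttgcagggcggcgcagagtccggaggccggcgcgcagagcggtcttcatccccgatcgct
Foxo1: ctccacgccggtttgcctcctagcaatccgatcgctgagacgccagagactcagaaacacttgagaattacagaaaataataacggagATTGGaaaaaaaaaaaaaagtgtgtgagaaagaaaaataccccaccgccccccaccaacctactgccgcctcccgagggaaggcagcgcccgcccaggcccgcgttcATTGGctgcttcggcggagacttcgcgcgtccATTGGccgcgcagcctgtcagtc
Gfra1: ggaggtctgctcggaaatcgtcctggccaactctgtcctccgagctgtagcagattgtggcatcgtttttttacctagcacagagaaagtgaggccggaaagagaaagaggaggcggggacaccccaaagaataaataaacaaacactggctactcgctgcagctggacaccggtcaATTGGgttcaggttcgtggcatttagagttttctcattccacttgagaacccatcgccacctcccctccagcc
Id4: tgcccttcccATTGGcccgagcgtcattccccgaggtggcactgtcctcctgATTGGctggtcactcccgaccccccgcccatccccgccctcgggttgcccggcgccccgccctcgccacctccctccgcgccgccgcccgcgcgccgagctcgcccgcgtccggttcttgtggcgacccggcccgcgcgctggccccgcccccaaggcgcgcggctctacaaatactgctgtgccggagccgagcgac
The CCAAT box was found 3 times in the Etv5 window, 3 times in Foxo1, 1 time in Gfra1 and 2 times in Id4, so it was present in members that rose and in the member that fell. It was found in 5 of the 10 member windows and in 33.8% of all 32851 promoter windows of the same length. GTAAACA was found in 1 member window, that of Etv5, and in 3.17% of all windows. The paired heat shock half-sites GAANNTTC (6.69% of all windows) and the ETS motif CCGGAAGT (2.88%) were found in 0 of the 10. Both strands were searched, no matches overlapped in the printed windows, and the motifs were chosen after the sequences had been seen. A match is a description of the letters only.

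Heat in wild type was followed by higher values of most members and a lower value of Id4. A mean of 1 TPM over all libraries was reached by 7 of the 10 members, and of these 6 rose and 1 fell. The background was high: 91.6% of the 18977 genes tested were called, 47.0% as higher and 44.6% as lower. The median log2 change of the 7 members was 1.28, and that of all genes tested was 0.06. Ret, Upp1 and Nanos3 had means of 0.791, 0.961 and 0.801 TPM and were tested in a fit without the filter, over 39589 genes, of which 64.4% were called, 34.1% as higher and 30.3% as lower. There Ret and Upp1 rose and Nanos3 was not called. In the knockout 5 of the 7 members rose after heat, Id4 fell and Gfra1 was not called (background 82.8% called, 41.3% as higher and 41.5% as lower, median of the members 0.44 against 0.01 for all genes). In the fit without the filter Ret rose as well, and Upp1 and Nanos3 were not called (background 51.6%, with 25.8% higher and 25.7% lower). By ranges alone, all heated wild-type libraries lay above all unheated ones for 8 of the 10 members and below for 1 (28.9% and 26.6% of the 39589 genes, 55.6% in all). In the knockout this was so for 4 members above and 1 below (19.5% and 20.9%, 40.4% in all). Sall4 had unheated means of 1.03 and 0.928 TPM, so its heated values carried it past the filter. In whole tissue scaled to a fixed total, more cells of a type, more RNA per cell and less RNA from other cells cannot be told apart.

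**Figure D1:**
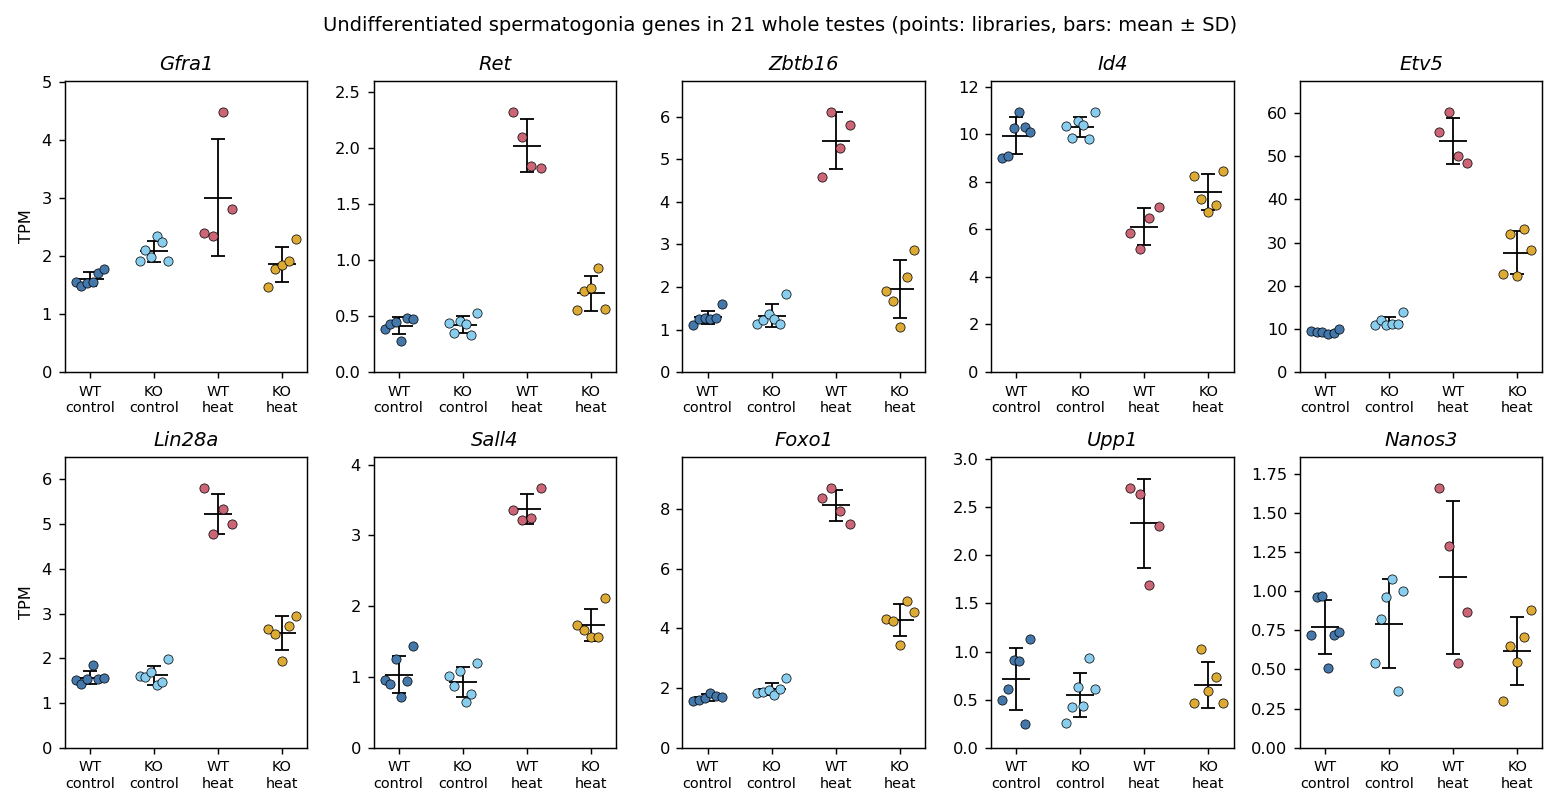
TPM of each of the 10 members (vertical axis, from 0, own scale per gene) in each library of the 4 groups (WT wild type, KO Mageb4 knockout). Points are libraries and bars are mean ± SD (n = 6, 6, 4 and 5). In 8 members every heated wild-type library lies above every unheated wild-type library, in Id4 every one lies below, and in Nanos3 the groups overlap.

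The receptor genes differed in how far they changed. Gfra1 encodes the GDNF-binding coreceptor, which is anchored to the cell surface. Gfra1 ranged from 1.48 to 1.78 TPM in unheated wild type (median 1.56) and stood at 2.39, 2.35, 4.48 and 2.81 TPM in the 4 heated wild-type libraries, replicates 1 to 4. All heated libraries were above all unheated ones, and replicate 3, the library with epididymal genes, was the highest. The change was 1.88-fold (log2 0.59 ± 0.11, adjusted p = 2.75e-05), and 0.43 (6.14e-05) without replicate 3. In the knockout Gfra1 ranged from 1.91 to 2.35 TPM without heat (median 2.04) and was 1.46, 1.78, 1.84, 1.92 and 2.30 TPM after heat. These ranges overlapped, with a log2 difference of -0.11 ± 0.10 (adjusted p = 0.306). The heat effects differed between genotypes by -0.71 ± 0.15 (adjusted p = 0.000208).

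Ret encodes the tyrosine kinase that transmits the GDNF signal, and it had the lowest unheated level of the members. It ranged from 0.28 to 0.48 TPM in unheated wild type (median 0.44) and was 2.32, 2.10, 1.84 and 1.82 TPM after heat, a 4.87-fold rise with no overlap (log2 1.09 ± 0.07, adjusted p = 5.77e-12 in the fit without the filter). Unheated knockout libraries ranged from 0.33 to 0.53 TPM (median 0.435) and was 0.55, 0.72, 0.75, 0.93 and 0.56 TPM after heat. The lowest heated value lay just above the highest unheated one, and the rise was 1.66-fold (log2 0.25 ± 0.06, adjusted p = 0.00142). The difference of the heat effects was -0.84 ± 0.09 (adjusted p = 2.60e-07). Thus the kinase rose in both genotypes, while the coreceptor was called in wild type and not in the knockout.

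Etv5, an ETS transcription factor that GDNF and FGF signals induce and whose loss depletes spermatogonial stem cells, rose most. It ranged from 8.81 to 9.87 TPM in unheated wild type (median 9.22) and was 55.6, 60.2, 50.2 and 48.3 TPM after heat, 5.79-fold higher (log2 2.41 ± 0.10, adjusted p = 9.65e-16). Knockout values were 10.9 to 13.8 TPM without heat (median 11.1) and 22.7, 32.1, 22.3, 33.1 and 28.2 TPM after heat, 2.38-fold higher (1.17 ± 0.09, adjusted p = 1.75e-10). The 4 heated wild-type values lay above all 5 heated knockout values, and those above all unheated ones. The difference of the heat effects was -1.24 ± 0.14 (adjusted p = 7.32e-08).

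Id4, an inhibitor of helix-loop-helix transcription factors that marks stem cells among spermatogonia, was the member that fell. It ranged from 8.98 to 10.9 TPM in unheated wild type (median 10.2) and was 5.83, 5.15, 6.49 and 6.95 TPM after heat, 1.63-fold lower (log2 -0.63 ± 0.08, adjusted p = 7.81e-08). Without heat the knockout ranged from 9.81 to 10.9 TPM (median 10.4) and was 8.26, 7.28, 6.74, 7.04 and 8.43 TPM after heat, 1.37-fold lower (-0.41 ± 0.07, adjusted p = 1.95e-05). Heated and unheated libraries did not overlap in either genotype. Of the spermatocyte genes 10 of 16 also fell in wild type and 5 rose. Of the round spermatid genes 13 of 15 fell and 2 rose. The part of these cells in the Id4 value was not tested. The difference of the heat effects was 0.22 ± 0.10 (adjusted p = 0.0579). It was called with median-of-ratios scaling (0.31, adjusted p = 0.00919), with quantile normalization (0.26, 0.0185) and without any 1 of 6 libraries, wild-type control replicates 1 and 2, wild-type heat replicates 3 and 4 and knockout heat replicates 3 and 4 (0.24 to 0.28).

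The other transcription regulators rose in both genotypes. Zbtb16 encodes PLZF, a zinc-finger repressor needed for stem cell maintenance. It ranged from 1.11 to 1.59 TPM in unheated wild type (median 1.25) and was 4.59, 6.11, 5.26 and 5.81 TPM after heat, 4.23-fold higher with no overlap (log2 1.49 ± 0.13, adjusted p = 2.45e-10). The unheated knockout ranged from 1.13 to 1.84 TPM (median 1.24) and was 1.90, 1.67, 1.07, 2.24 and 2.88 TPM after heat. Replicate 3 lay below every unheated knockout library and replicate 5 was the highest, so the groups overlapped. The knockout rise of 0.32 ± 0.12 (adjusted p = 0.0168) was not called without knockout heat replicate 5 (0.22, adjusted p = 0.0748). The difference of the heat effects was -1.17 ± 0.17 (adjusted p = 3.88e-06).

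Sall4 is a zinc-finger factor that acts with PLZF and with histone deacetylase complexes. It ranged from 0.72 to 1.43 TPM in unheated wild type (median 0.945) and was 3.36, 3.22, 3.24 and 3.67 TPM after heat, 3.27-fold higher (log2 1.11 ± 0.10, adjusted p = 3.96e-10). Its unheated knockout range was 0.64 to 1.2 TPM (median 0.945), and it was 1.74, 1.67, 1.56, 1.57 and 2.12 TPM after heat, 1.87-fold higher (0.51 ± 0.09, adjusted p = 3.13e-05). Neither pair of groups overlapped, and the heat effects differed by -0.61 ± 0.13 (adjusted p = 0.000321).

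Foxo1 is a forkhead factor that PI3K and AKT signalling keeps out of the nucleus. It ranged from 1.56 to 1.85 TPM in unheated wild type (median 1.68) and was 8.36, 8.71, 7.93 and 7.5 TPM after heat, 4.82-fold higher (log2 1.76 ± 0.07, adjusted p = 1.30e-15). In the knockout it ranged from 1.76 to 2.33 TPM (median 1.91) and was 4.31, 4.26, 3.45, 4.91 and 4.55 TPM after heat, 2.20-fold higher (0.84 ± 0.07, adjusted p = 3.41e-10). As for Etv5, heated wild type lay above heated knockout and heated knockout above all unheated libraries. The heat effects differed by -0.93 ± 0.10 (adjusted p = 7.05e-08).

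Of the RNA-binding proteins, LIN28A blocks the maturation of let-7 microRNAs and NANOS3 represses translation of bound messages in germ cells. Lin28a ranged from 1.42 to 1.85 TPM in unheated wild type (median 1.54) and was 5.81, 4.79, 5.33 and 5.00 TPM after heat, 3.33-fold higher with no overlap (log2 1.28 ± 0.08, adjusted p = 1.76e-12). In the knockout it ranged from 1.40 to 1.98 TPM (median 1.59) and was 2.65, 2.55, 1.93, 2.73 and 2.95 TPM after heat, 1.58-fold higher (0.44 ± 0.08, adjusted p = 2.04e-05). Replicate 3 lay within the unheated range and the other heated knockout libraries lay above it. The heat effects differed by -0.84 ± 0.11 (adjusted p = 1.04e-06).

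Nanos3 had wide ranges in every group. It was 0.51 to 0.97 TPM in unheated wild type (median 0.73), 1.66, 1.29, 0.54 and 0.87 TPM in heated wild type, 0.36 to 1.08 TPM in the unheated knockout (median 0.89) and 0.30, 0.65, 0.55, 0.71 and 0.88 TPM in the heated knockout. The heated ranges overlapped the unheated ones in both genotypes. The log2 difference with heat was 0.22 ± 0.14 (adjusted p = 0.207) in wild type and -0.14 ± 0.14 (adjusted p = 0.423) in the knockout. Wild-type heat replicate 3 was the lowest of its group, and without it the wild-type difference was called (0.35, adjusted p = 0.0371), as it was with quantile normalization (0.35, adjusted p = 0.0319). The heat effects differed by -0.36 ± 0.20 (adjusted p = 0.159), and by -0.49 (adjusted p = 0.0362) without that library.

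Upp1 encodes uridine phosphorylase, an enzyme of pyrimidine salvage. It ranged from 0.25 to 1.13 TPM in unheated wild type (median 0.755) and was 2.70, 2.64, 1.69 and 2.30 TPM after heat, 3.25-fold higher with no overlap (log2 0.97 ± 0.15, adjusted p = 5.48e-06 in the fit without the filter). In the knockout it ranged from 0.26 to 0.93 TPM (median 0.52) and was 0.46, 1.03, 0.59, 0.73 and 0.46 TPM after heat, which overlapped (0.10 ± 0.14, adjusted p = 0.6). The heat effects differed by -0.87 ± 0.20 (adjusted p = 0.00106). With Gfra1 and Nanos3 it was among the 3 members not called after heat in the knockout.

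**Figure D2:**
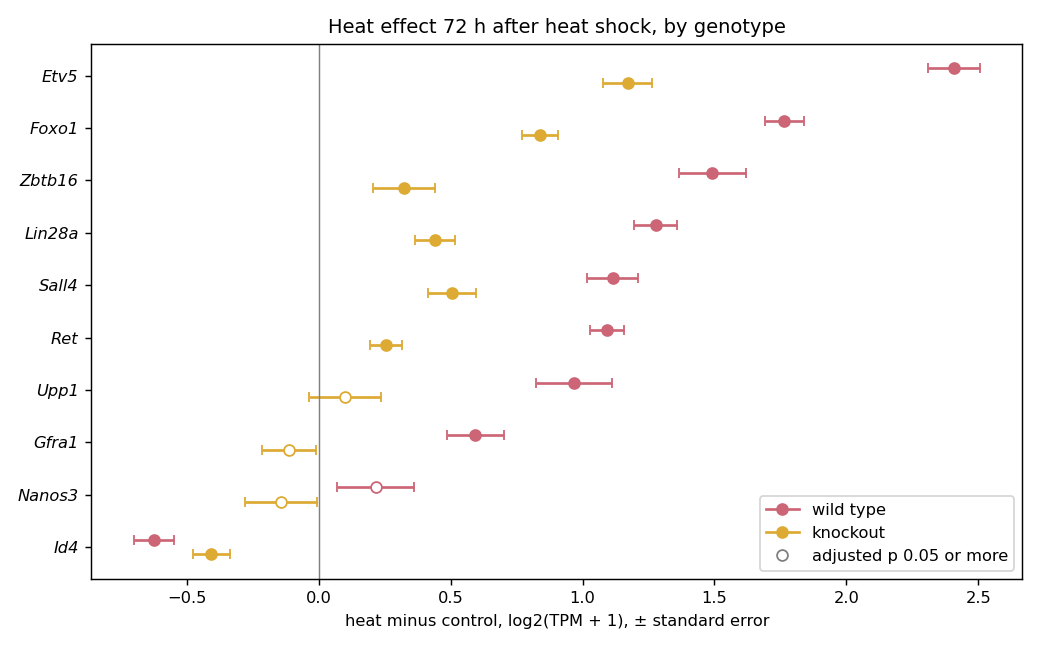
Heat minus control in log2(TPM + 1) ± moderated standard error for each member in wild type and in the knockout, from limma. Open circles are not called. Ret, Upp1 and Nanos3 come from the fit without the filter. The wild-type value is farther from 0 than the knockout value for all 10 members.

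The difference of the heat effects was called for 6 of the 7 members that passed the filter, all with a lower value in the knockout (background 80.7% called, 47.6% as lower and 33.2% as higher), and for Ret and Upp1, also lower, in the fit without the filter (background 46.7%, with 28.5% lower and 18.2% higher). Heat changed the order of the members as well. In unheated wild type Id4 and Etv5 had the highest mean TPM, at 9.94 and 9.25, and their ranges overlapped. Foxo1, Gfra1 and Lin28a followed at 1.69, 1.60 and 1.57 TPM, then Zbtb16 at 1.29, Sall4 at 1.03, Nanos3 at 0.77, Upp1 at 0.717 and Ret at 0.415 TPM. From Foxo1 down, each of these overlapped the next in its range. In heated wild type Etv5 stood alone at 53.6 TPM and Foxo1 was second at 8.13. Id4, Zbtb16 and Lin28a at 6.11, 5.44 and 5.23 TPM overlapped each other, as did Sall4 at 3.37 and Gfra1 at 3.01. Upp1 at 2.33, Ret at 2.02 and Nanos3 at 1.09 TPM were the lowest. In the heated knockout Etv5 led at 27.7 TPM, followed by Id4 at 7.55 and Foxo1 at 4.30, none of which overlapped the next, while Lin28a, Zbtb16, Gfra1 and Sall4 lay between 2.56 and 1.73 TPM with overlapping ranges.

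Without heat no member was called between genotypes by limma (0 of 7, background 1.33%, with 1.25% higher and 0.0843% lower; 2 of 7 at an unadjusted p under 0.05, background 16.0%; 2 of 7 with limma array weights, background 12.4%). Those 2 were Etv5 and Gfra1. In the fit without the filter 0 of 10 were called (background 0.202%, with 0.167% higher and 0.0354% lower; 3 of 10 at an unadjusted p under 0.05, background 10.9%). These 3 were Etv5, Gfra1 and Foxo1 (limma unadjusted p = 0.0472 for Foxo1). For Etv5 and Gfra1 all unheated knockout libraries lay above all unheated wild-type libraries. The ranges were 10.9 to 13.8 against 8.81 to 9.87 TPM for Etv5 and 1.91 to 2.35 against 1.48 to 1.78 TPM for Gfra1. Of the 39589 genes, 2.15% had such higher values and 0.346% lower values without overlap, 2.50% in all. Etv5 was 1.26-fold higher (log2 0.30 ± 0.09, adjusted p = 0.0861; 0.27, 0.00498 with array weights) and Gfra1 1.30-fold higher (0.24 ± 0.10, adjusted p = 0.199; 0.24, 0.0233). The Sertoli list moved with them: its 18 genes summed to 1731 to 1960 TPM in unheated wild type and 2170 to 2876 TPM in the unheated knockout, and 5 of the 18 were called as higher, with none called as lower. The part of Sertoli cells in the Etv5 and Gfra1 values was not tested. The other 8 members overlapped between genotypes.

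After heat the knockout had a lower mean than wild type for every member except Id4. Of the 7 members that passed the filter 6 were lower and 1 was higher (background 83.5% called, 49.0% as lower and 34.4% as higher). The median of the members was -0.79, and that of all genes -0.20. Zbtb16 was 2.79-fold lower (log2 -1.15 ± 0.13, adjusted p = 8.37e-08), Lin28a 2.04-fold (-0.81 ± 0.09, 2.42e-08), Sall4 1.95-fold (-0.68 ± 0.10, 2.95e-06), Etv5 1.93-fold (-0.94 ± 0.10, 4.03e-08) and Foxo1 1.89-fold (-0.79 ± 0.08, 7.91e-09). In the fit without the filter Ret was 2.88-fold lower (-0.83 ± 0.07, 4.92e-09) and Upp1 3.57-fold lower (-1.01 ± 0.15, 9.34e-06; background 50.5% called, 31.0% as lower and 19.5% as higher). Gfra1 was 1.62-fold lower (-0.46 ± 0.11, adjusted p = 0.00078), and -0.30 (0.00325) without wild-type heat replicate 3. In these 8 members no heated knockout library reached the lowest heated wild-type library (24.5% of the 39589 genes were lower and 16.9% higher without overlap, 41.5% in all). Id4 was 1.24-fold higher (0.27 ± 0.08, adjusted p = 0.00349), with overlapping ranges. Nanos3 differed by -0.35 ± 0.15 (adjusted p = 0.0603); it was called with quantile normalization (-0.48, 0.00876) and without any 1 of 3 libraries, knockout control replicate 5, wild-type heat replicate 3 or knockout heat replicate 5 (adjusted p = 0.0437, 0.00893 and 0.0382).

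Markers of other cells moved with these results. All 18 Sertoli genes rose after heat in both genotypes (median log2 2.69 in wild type and 1.55 in the knockout), as did all 12 Leydig genes (2.05 and 1.40). The Sertoli sum was 13203 to 15927 TPM in heated wild type and 6100 to 8711 TPM in the heated knockout, and no gene of the Sertoli or Leydig list was at 0 in all libraries of a group. The endothelial sum rose from 17.1 to 19.4 TPM in unheated to 65.2 to 83.3 TPM in heated wild type, and 9 of 9 of its genes were called as higher. Among 15 genes of round spermatids, 13 were lower and 2 higher after heat in wild type (median -4.44), and of the 16 spermatocyte genes 10 fell and 5 rose (-1.97). The 14 elongating spermatid genes, the most abundant list, summed to 50572 to 61852 TPM in unheated and 38029 to 51494 TPM in heated wild type (6 higher, 5 lower). In the knockout their sum went from 52636 to 59829 TPM up to 81770 to 100938 TPM (14 of 14 higher), so between heated genotypes this list ran opposite to most members. The part of these cell types in the members' values, which are scaled to a fixed total, was not tested. Against median-of-ratios scaling the shift of a log2 value was -0.14 for the wild-type heat effect and 0.10 for the genotypes' difference in it, and that scaling left every call of the 10 members for heat in place.

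To set the members beside the Sertoli cells of the same library, the mean log2(TPM + 1) of the 18 Sertoli genes was subtracted from each member's value. These ratios are given as a description, without a test. The reference itself moved: the Sertoli mean was 4.61 to 4.75 in unheated and 7.20 to 7.43 in heated wild type. In the knockout it was 4.86 to 5.24 without heat and 6.26 to 6.70 after heat. Any gene that rose less than this list has a lower ratio after heat, and the share of all genes with a lower ratio was not computed. Relative to the Sertoli list all 10 members were lower after heat, by 0.27 to 3.30 log2 units in wild type (median -1.57) and by 0.34 to 1.91 in the knockout (median -1.22). Etv5 stayed closest, with a ratio of -1.31 ± 0.02 (SD, n = 6) in unheated and -1.58 ± 0.06 (n = 4) in heated wild type. Id4 moved farthest, from -1.21 ± 0.12 to -4.52 ± 0.27, and Zbtb16 went from -3.47 ± 0.07 to -4.66 ± 0.21. With a pseudocount of 0.1 the wild-type differences ran from -3.54 to -0.33 (median -1.17), and with the Leydig list as the reference from -2.66 to 0.38 (median -0.93), 9 of 10 below 0. The exception with the Leydig list was Etv5.

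**Figure D3:**
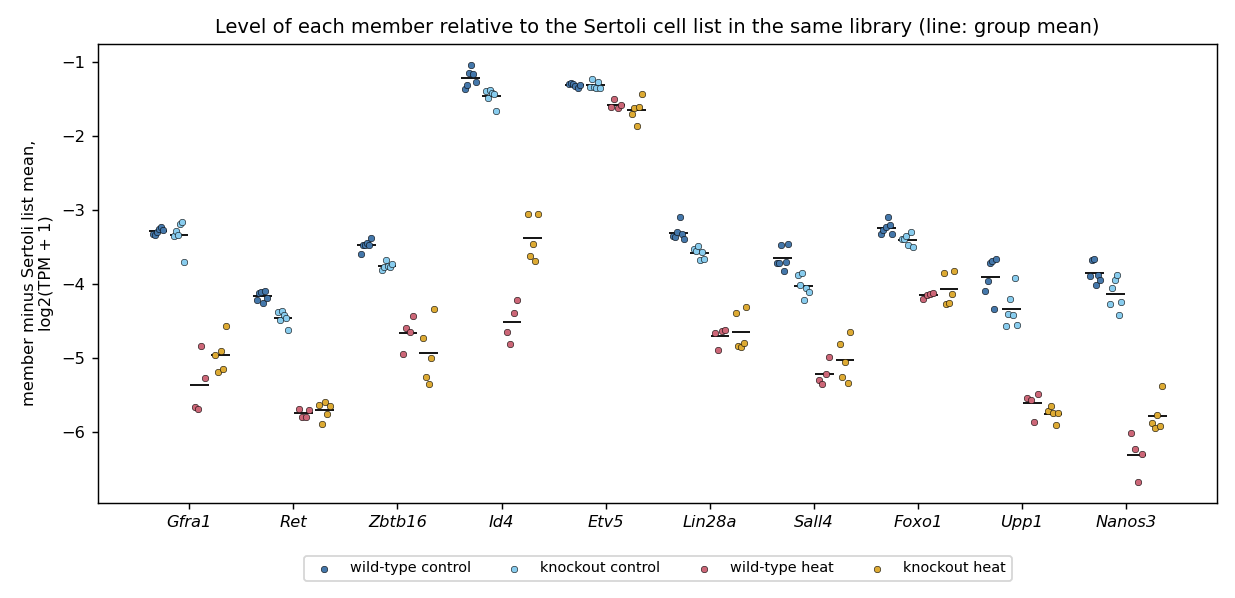
Level of each member minus the mean of the 18 Sertoli genes in the same library, in log2(TPM + 1), for the 4 groups; points are libraries and lines group means. The Sertoli mean itself rose after heat in both genotypes. Every member is lower after heat on this scale, from Etv5 (by 0.27 in wild type) to Id4 (by 3.30 in wild type).

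Between heated genotypes the sign of the ratio's difference varied with the member and the reference. On the Sertoli list the knockout minus wild-type difference had a median of 0.07 (7 members above 0 and 3 below), and -0.05 with a pseudocount of 0.1 (3 above, 7 below), so the median's sign depends on the pseudocount. With the Leydig list the median was -0.40 (2 above, 8 below), with Zbtb16 at -0.75 and Etv5 at -0.54. Ret, 2.88-fold lower in TPM, differed by 0.04 in its ratio to the Sertoli list, by -0.52 with a pseudocount of 0.1 and by -0.43 with the Leydig list. Id4 differed by 1.14, the largest such difference on the Sertoli list (1.198 with a pseudocount of 0.1 and 0.67 with the Leydig list). The genotypes were thus farther apart in the Id4 ratio than in log2(TPM + 1). Nanos3 differed by 0.52, against -0.35 in log2(TPM + 1), but by 0.20 with a pseudocount of 0.1 and 0.05 with the Leydig list. Without heat the Sertoli mean was itself higher in the knockout, at 4.86 to 5.24 against 4.61 to 4.75 in wild type. All 10 members had lower ratios in the unheated knockout, with a median of -0.28, and Etv5 differed by -0.0016. With a pseudocount of 0.1 this held for 9 of 10, with Gfra1 at 0.02.

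Libraries of a group also varied around their mean, and the members did not vary as a block. After subtracting group means, the correlation between members over the 21 libraries had a median of 0.19 over 45 pairs and ran from -0.45 to 0.78. The closest pairs were Lin28a with Foxo1 (0.78), Zbtb16 with Foxo1 (0.71) and Etv5 with Foxo1 (0.70). Ret and Id4 were at -0.45. With the Sertoli list mean, treated the same way, Etv5 was at 0.84, Ret at 0.76, Foxo1 at 0.49, Nanos3 at 0.42, Upp1 at 0.39, Lin28a at 0.24, Zbtb16 at 0.16, Sall4 at 0.08, Gfra1 at -0.16 and Id4 at -0.37. These correlations share libraries and scaling, and many values are low, so they are a description.

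**Figure D4:**
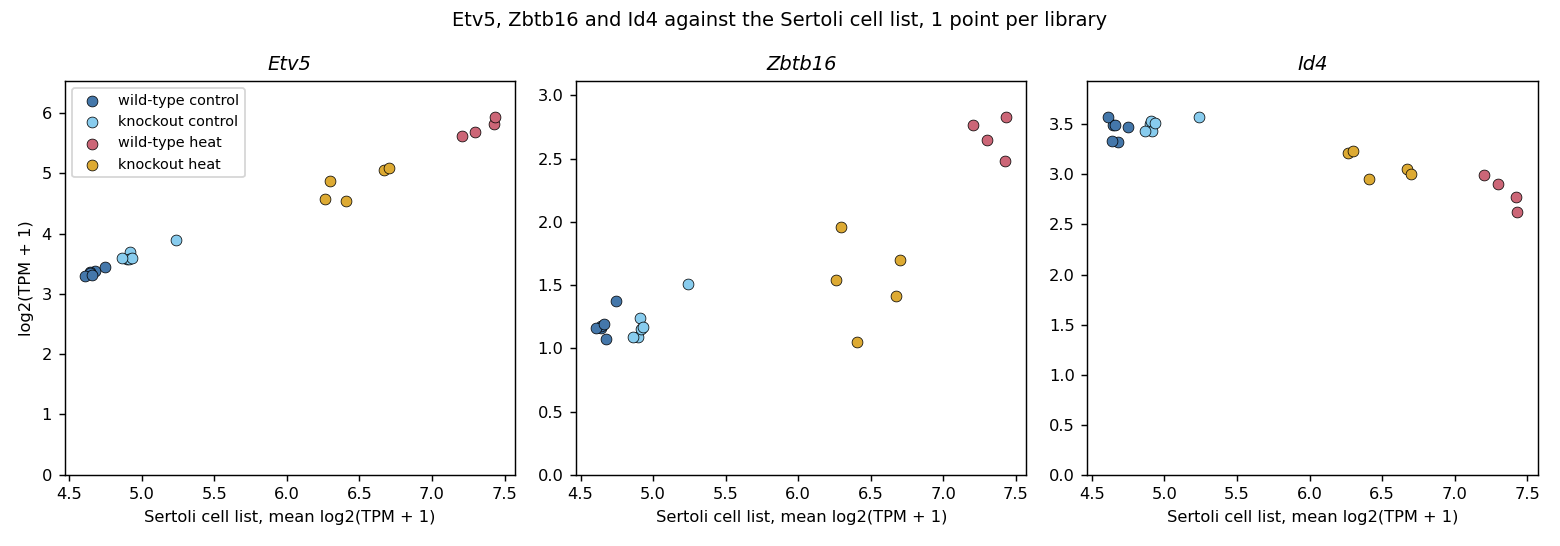
Level of Etv5, Zbtb16 and Id4 (vertical axes, from 0) against the mean of the 18 Sertoli genes (horizontal axis), both in log2(TPM + 1), with 1 point per library and colours for groups. Etv5 follows the Sertoli list within and between groups (0.84 after subtracting group means), Zbtb16 rises mainly in heated wild type, and Id4 is lower in both heated groups.

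Genes most like a member were sought by Pearson correlation of log2(TPM + 1) over the 21 libraries among 14077 named genes tested. Without subtracting group means, which leaves the heat and genotype differences in, they were Cd24a (0.90) and Foxred2 (0.86) for Gfra1. They were Zfp97 and Zfp207 (0.97 each) for Zbtb16, and Ccp110 and Psma8 (0.98 each) for Id4. For Etv5 they were Hsp90ab1 and Ptpn11 (0.998 each), and for Lin28a Mzt1 and Taf9b (0.99 each). For Sall4 they were Ifitm1 and Taf9b (0.96 each), and for Foxo1 Uba3 and Mtpn (0.998 each). With group means subtracted they were Sarm1 and Defb38 (0.82 each) for Gfra1, Nrip3 (0.86) and Dazl (0.85) for Zbtb16, Thoc7 and Kif4-ps (0.87 each) for Id4, Arf1 (0.94) and Mylk (0.93) for Etv5, Angel2 (0.88) and Esco2 (0.87) for Lin28a, Alyref (0.74) and Igkc (0.73) for Sall4, and Rnf217 and Rbpj (0.94 each) for Foxo1. Defb38 is a defensin gene, and Gfra1 was highest in the library with epididymal genes.

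The pathway around the members was read from 11 further lists that leave the members out and share 5 genes with other lists, counted with the same test and beside the background given above. The ligand Gdnf rose from 0.47 to 0.61 TPM in unheated to 3.45 to 4.45 TPM in heated wild type, 7.23-fold (log2 1.69 ± 0.08, adjusted p = 8.43e-15), and from 0.51 to 0.80 TPM to 1.64 to 2.50 TPM in the knockout, 3.12-fold (0.86 ± 0.07, 6.87e-10). Of 13 tested genes of GDNF and RET signalling 9 rose and 4 fell in wild type, and 9 rose and 3 fell in the knockout. Fyn, a SRC family kinase, rose 8.56-fold in wild type and 3.18-fold in the knockout, and the phosphatase gene Ptpn11 6.23-fold and 2.43-fold. The 4 that fell in wild type, named after their values were seen, were the Gfra1 paralogs Gfra2 (3.82-fold) and Gfra4 (4.58-fold), the ligand gene Artn (9.33-fold) and the adhesion gene Ncam1 (1.99-fold). In the knockout Gfra4, Artn and Ncam1 fell and Gfra2 was not called. Of 14 regulators that GDNF or FGF induces 11 rose and 2 fell in wild type, among them the feedback inhibitors Dusp6 (5.54-fold) and Spry1 (5.03-fold), which rose 2.73-fold and 2.52-fold in the knockout. Niche ligands and receptors rose in 15 of 16 in wild type with the other not called, and in 15 of 16 in the knockout with 1 lower. Ctnnb1, encoding beta-catenin, rose 4.09-fold and the cytokine coreceptor Il6st 5.43-fold in wild type. The cells in which the genes of these lists changed were not tested. All 18 Sertoli, 12 Leydig and 9 endothelial genes rose in wild type as well.

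Of 30 other undifferentiated spermatogonia genes 17 passed the filter, and 13 of these rose and 2 fell in wild type, with 12 and 1 in the knockout. The 2 that fell in wild type, named after their values were seen, were Pou5f1 and Lin28b, and Lin28b was the 1 that fell in the knockout. Several of the 30, such as the integrin gene Itgb1 (8.34-fold in wild type) and the stress-induced Ddit4 (7.99-fold), are expressed in many cell types. The narrow markers Nanos2 and Neurog3 lay below the filter, at 0.03 to 0.06 and 0.08 to 0.31 TPM in unheated and 0.11 to 0.20 and 0.52 to 0.84 TPM in heated wild type. In the heated knockout they were at 0.02 to 0.11 and 0.22 to 0.42 TPM, which overlapped the unheated knockout for both. The values of Nanos2 and Neurog3 are near 0, and no test of them is given. Of the 39589 genes, 28.9% also had all heated wild-type libraries above all unheated ones. Of 14 genes of differentiating spermatogonia, the next stage, 8 rose and 3 fell in wild type and 9 rose and 5 fell in the knockout. Kit, the stem cell factor receptor, which Leydig cells also express, rose 3.24-fold in wild type and 2.28-fold in the knockout. Stra8, which drives entry into meiosis, was 0.999 times its unheated mean in wild type (adjusted p = 0.982) and rose 1.28-fold in the knockout. Dmrtb1, a regulator of the switch from mitosis to meiosis, fell 21.7-fold in wild type and 4.39-fold in the knockout.

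The paralogs and partners of the members did not all follow them. All 6 other ID and E protein genes rose in both genotypes, where Id4 fell: Id2 rose 5.09-fold and Id3 6.92-fold in wild type, and 2.35-fold and 3.04-fold in the knockout. Lin28b, the paralog of Lin28a, fell in both genotypes, from 2.18 to 3.09 TPM to 1.31 to 1.68 TPM in wild type (1.64-fold, adjusted p = 5.48e-05) and from 2.05 to 2.85 TPM to 1.31 to 2.03 TPM in the knockout (1.48-fold, adjusted p = 0.00035). In the LIN28 and let-7 list 5 of 10 rose and 4 fell in wild type, including the exonuclease gene Dis3l2 (2.87-fold lower) and the mRNA-binding Igf2bp3 (2.33-fold lower). In the FOXO and PI3K list 15 of 20 rose and 3 fell in wild type, with Foxo3 up 7.17-fold. Of 14 SALL and PLZF partners 9 rose and 5 fell in wild type, with the deacetylase complex genes Rbbp7 and Mta2 up 6.41-fold and 2.53-fold. Of the same complexes Hdac1, Mta1 and Mbd3, also named after their values were seen, fell 2.33-fold, 2.31-fold and 1.83-fold. Of 10 NANOS partners 6 rose and 3 fell, with the deadenylase gene Cnot8 up 3.99-fold and the germ cell helicase gene Ddx4 down 5.36-fold. Of 7 uridine salvage and breakdown genes 5 rose and 1 fell, Dpyd up 6.79-fold and the kinase gene Uck2 down 6.09-fold.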

How the data were processed

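RNA of 21 whole testes was extracted with Trizol and sequenced as stranded mRNA libraries with Illumina chemistry, as the labels' protocols record. The deposited values are TPM computed by the authors, with an equal sum in each library. STAR and mm10 are named per the submitters' processing notes; the sources used here do not name the annotation or abundance tool. TPM keeps no depth, so precision was judged from the replicates, which the labels call biological. No 2 libraries were identical (0 pairs).

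Groups were taken from the labels. Values were transformed to log2(TPM + 1), 18977 genes averaging 1 TPM or more were kept, and group means were fitted to all 21 libraries together in limma 3.58.1 (R 4.3.3), with moderation and a mean-variance trend, tested on simulated data. The 5 comparisons were heat in each genotype, genotype without and after heat, and the difference of the heat effects. The members and lists, 11 pathway and 10 marker lists written from textbook knowledge, were chosen with earlier results of these data known. The named genes are the members, Mageb4, Gdnf, Kit, Stra8, Nanos2, Lin28b, Neurog3, the 2 genes of each pathway list with the largest moderated t for heat in wild type, and the 2 most correlated genes per tested member. Alternatives were a pseudocount of 0.1, no filter, a filter of 5 TPM, median-of-ratios scaling, quantile normalization, array weights, the replicate number as a block and leaving out each library.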

Additional observations from a re-analysis of the deposited data

Results flagged for a closer look

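Single libraries stood far from the rest of their group in 5 of the 40 combinations of member and group, by Dixon's test at the 95% level. Chance gives about 1 in 20. Knockout control replicate 6 was the highest unheated knockout library for Zbtb16 (1.84 TPM, next 1.36), Etv5 (13.8 TPM, next 11.96) and Foxo1 (2.33 TPM, next 1.97), and it also had the highest Sertoli sum of its group (2876 TPM, group median 2223). Wild-type control replicate 6 was the highest of its group for Zbtb16 (1.59 TPM, next 1.28), and wild-type control replicate 4 for Lin28a (1.85 TPM, next 1.56).

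The heat effect differed between genotypes, tested as an interaction in limma, for 6 of the 7 members that passed the filter (80.7% of all genes tested) and for Ret and Upp1 in the fit without the filter (46.7%). The heat effect in the knockout minus that in wild type, in log2(TPM + 1), was -1.24 for Etv5, -1.17 for Zbtb16, -0.93 for Foxo1, -0.87 for Upp1, -0.84 for Ret, -0.84 for Lin28a, -0.71 for Gfra1 and -0.61 for Sall4.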

How the results depend on the processing

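The number of the 7 members called was 7, 6, 0, 7 and 6 for heat in wild type, heat in the knockout, genotype without heat, genotype after heat and the difference of the heat effects. It stayed within 1.5 times of this in all 5 comparisons with a pseudocount of 0.1, no filter (9, 7, 0, 9 and 8 of 10), either scaling and the replicate block, and when any 1 library was left out. With a filter of 5 TPM only Etv5 and Id4 were tested, and 2, 2, 0, 2 and 1 were called. With array weights 2 were called for genotype without heat (background 12.4%). The replicate block gave 7, 6, 0, 7 and 6. Among all genes tested 91.6%, 82.8%, 1.33%, 83.5% and 80.7% were called as reported, and 64.4%, 51.6%, 0.202%, 50.5% and 46.7% without the filter. No such share is given for the other settings, so their counts are a description only. The replicate numbers showed no clear pairing of the samples. With group means subtracted, correlations of same-numbered libraries ran from -0.02 to 0.03 between unheated and heated wild type. They ran from -0.09 to 0.19 between unheated and heated knockout. Between genotypes they ran from -0.23 to 0.14 without heat and from -0.16 to 0.31 after heat. The most correlated library of the other group had the same number for 0 of 4, 0 of 5, 1 of 6 and 0 of 4 libraries, in that order.

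Sign changes of the members' log2 differences between groups were all for genotype without heat, in members that were not called there, whose values were close to 0. Quantile normalization gave -0.0055 for Ret, -0.054 for Zbtb16, -0.014 for Id4, -0.034 for Lin28a and -0.017 for Nanos3. Array weights gave -0.011 for Ret, -0.0073 for Zbtb16 and -0.011 for Nanos3. For Nanos3 a pseudocount of 0.1 gave -0.011 and median-of-ratios scaling -0.0033. Leaving out 1 library gave -0.0200 to 0.0279 for Ret, -0.0422 to 0.0539 for Zbtb16, -0.0129 to 0.0554 for Lin28a and -0.0377 to 0.0849 for Nanos3.

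The cause of these changes was not tested, except that the filter of 5 TPM tests fewer members. The ratios to a somatic list, which have no test, changed with the settings: of 40 heat differences recomputed with a pseudocount of 0.1 or the Leydig list 22 moved by more than 1 SD, and Etv5 in wild type went from -0.27 to 0.38 with the Leydig list. The SD within a group was largest relative to the mean for Upp1 (up to 44.9%) and Nanos3 (up to 44.8%).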

Other observations

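Of the 14 tested regulators that GDNF or FGF induces in spermatogonia, 11 rose and 2 fell in wild type. Lhx1, Bcl6b and Mycn of that list are given here because of their values, which were seen first. Lhx1, a LIM homeobox factor, fell from 2.58 ± 0.315 TPM (SD, n = 6) to 0.50 ± 0.225 TPM (n = 4) in wild type (limma adjusted p = 5.55e-11), where Etv5 rose. In the knockout it was 2.19 ± 0.296 TPM (n = 6) without and 2.42 ± 0.291 TPM (n = 5) after heat (limma adjusted p = 0.307), and the heat effects differed by 1.37 ± 0.14 log2 units (limma adjusted p = 2.11e-08). Bcl6b, a repressor of the same family as PLZF, was 2.35 ± 0.265 and 2.42 ± 0.456 TPM in unheated and heated wild type (limma adjusted p = 0.754) and fell from 2.81 ± 0.0866 to 1.54 ± 0.202 TPM in the knockout (limma adjusted p = 3.82e-07). Mycn rose in both genotypes, 3.74-fold and 2.59-fold.

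Igf2bp3, an mRNA-binding protein gene of the LIN28 and let-7 list also chosen for its values, fell 2.33-fold in wild type and rose 1.30-fold in the knockout, to 58.6 ± 12.4 TPM (n = 4) and 170.6 ± 13.2 TPM (n = 5), with a difference of the heat effects of 1.60 ± 0.13 log2 units (limma adjusted p = 1.53e-09).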
